A study of Mus musculus with 8 samples.

Results

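The 41 genes described here encode proteins that sense DNA damage or repair it, and they were taken by a fixed list of names from the 23337 gene symbols in the tables of all 8 libraries. They fall into 8 roles, namely the damage kinases with p53, break sensing, the Fanconi anaemia pathway, BRCA-dependent recombination, end joining, repair of single-strand breaks and of bases, nucleotide excision, and translesion synthesis with mismatch repair. Messenger RNA was sequenced from naive T cells, CD62L-positive and CD44-low by sorting, of mice aged 4 weeks, taken from spleens and from the nodes that the labels call mLNs. The 4 groups of 2 libraries were CD4 cells of CD4-cre Trappc1 cKO mice (CD4 KO), CD4 cells of wild-type mice (CD4 WT), CD8 cells of CD4-cre Trappc1 cKO mice (CD8 KO) and CD8 cells of wild-type mice (CD8 WT). CD4-cre is a Cre recombinase driven by the Cd4 promoter, which is active in developing T cells of both lineages, so that the deletion of Trappc1, a gene for a part of the TRAPP complexes that tether transport vesicles, is aimed at T cells. The labels do not say whether the WT mice carried Cre, nor whether libraries of a group came from separate mice, so the p-values below cover only the spread seen within these pairs, which may be technical.

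DNA damage is read by 3 related kinases. ATM answers to broken ends through the MRE11-RAD50-NBN complex, ATR answers to single-stranded DNA, and DNA-PKcs is recruited to ends by the Ku dimer, while p53 acts below ATM and ATR. Breaks are rejoined by end joining or by recombination with a sister copy, crosslinks between strands are removed through the Fanconi anaemia proteins, and bulky lesions are cut out by nucleotide excision. T cells use end joining to assemble their antigen receptor genes in the thymus, and recombination works mainly in dividing cells, which naive T cells become only after activation.

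Aligned sequence came to 3.03 to 4.01 gigabases per library, and replicates correlated across the 11786 genes tested with Pearson's r of 0.951 in CD4 KO, 0.944 in CD4 WT, 0.929 in CD8 KO and 0.821 in CD8 WT. Levels are given in TPM, a share of all transcripts corrected for transcript length. Trappc1 stood at 30.5 and 32.8 TPM in CD4 KO, against 78.7 and 55.0 in CD4 WT, and at 56.9 and 45.6 TPM in CD8 KO, against 81.2 and 40.3 in CD8 WT. The 40.3 TPM belong to the library labelled CD8 WT replicate 2, which lay below both CD8 KO libraries and so went against its label. It also stood apart in markers of other cells: the 11 erythroid markers summed to 95025 TPM, against 62.0 to 2320 in the other 7 libraries, and 15 neutrophil and macrophage markers to 30010 TPM, against 91.9 to 2273. In the CD4 libraries the neutrophil and macrophage markers summed to 1372 and 2273 TPM in KO, against 283 and 91.9 in WT. The 12 B cell markers, all above 0 in the 4 CD4 libraries, summed to 2294 and 2189 TPM in CD4 KO, against 3002 and 3423 in CD4 WT, and to 551 and 587 TPM in CD8 KO, against 488 and 1420 in CD8 WT. The lineage labels held, with Cd4 at 543 to 764 TPM in the CD4 libraries and 0 to 14.5 in the CD8 libraries. Cd8a stood at 1.28 to 4.10 TPM in the CD4 libraries. In CD8 KO it had 484 and 418 TPM, against 548 and 163 TPM in CD8 WT, the 163 TPM in the library labelled CD8 WT replicate 2. The 12 T cell markers were above 0 in every library. They summed to 6880 TPM in the library labelled CD8 WT replicate 2, against 11041 to 15902 TPM in the others. In bulk libraries such as these, fewer cells of a type and less RNA per cell cannot be told apart.

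The set spans a wide range of levels. Averaged over the 8 libraries, Trp53 was the most abundant at 445 TPM, followed by Ddb1 at 300.4 and Ddb2 at 198 TPM, the subunits of the UV damage sensor, and by the nick sensor Parp1 at 105 TPM. The lowest were Bard1 at 0.682, Fancd2 at 2.36, Fanca at 2.55 and Brca2 at 3.42 TPM, while other Fanconi genes were far above these, such as Fancg at 49.9 and Fancl at 25.9 TPM. Of the 41 genes, 40 averaged at least 1 TPM over the 8 libraries and were tested. Bard1, the partner of BRCA1, did not reach that level: it had 0.901 TPM and a listed 0 in CD4 KO, 0.586 and a listed 0 in CD4 WT, 1.12 and 0.959 in CD8 KO, and a listed 0 and 1.89 in CD8 WT.

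**Figure D1:**
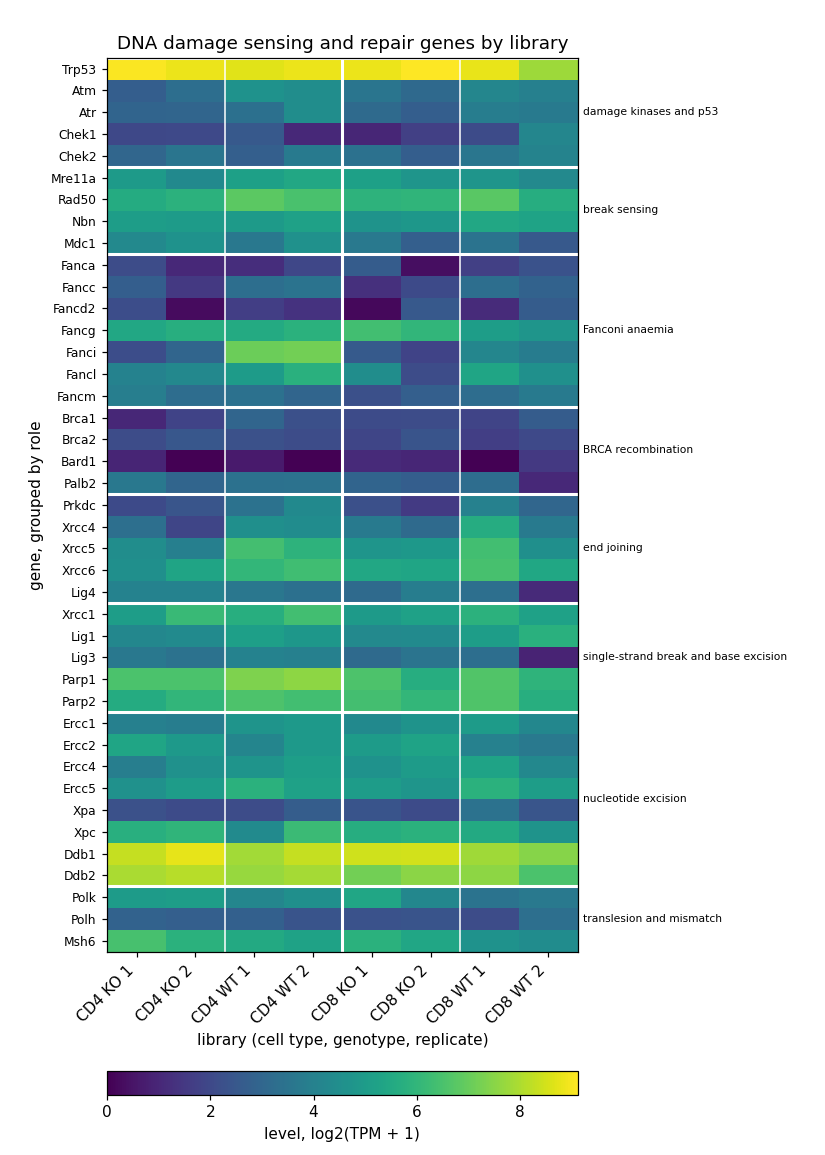
Level of each of the 41 genes (rows, grouped by role) in each of the 8 libraries (columns), coloured by log2(TPM + 1); thick lines separate roles and cell types, thin lines genotypes. Trp53, Ddb1 and Ddb2 are bright in every library, and Fanci is dark in the CD4 KO libraries, at 3.42 and 6.87 TPM, and bright in the CD4 WT libraries, at 133 and 143 TPM.

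The question put by the series is how loss of Trappc1 affects naive T cells. One member fell in CD4 KO against CD4 WT, namely Fanci, whose product pairs with FANCD2 and is the platform on which crosslink repair is started. Among 40 tested members this was the single call at an adjusted p under 0.05 (limma on log2(TPM + 1), Benjamini-Hochberg over all 11786 genes), where 0.713% of all genes were called in either direction and 0.526% were called lower. At an unadjusted p under 0.05 there were 8 members lower (20%, all genes 11.7%) and none higher. Across the set, 25 of 40 members had a log2 difference below 0, as did 58% of all genes, and the median was -0.36 for the members and -0.16 for all genes. The KO libraries lay below the WT libraries without overlap for 19 of 40 members (47.5%, all genes 36.5%) and above them for 4 of 40 (10%, all genes 21.7%). With TPM rescaled by the median of ratios the median of all genes in this comparison moved to 0.03, and 22 of 40 members were lower, since Nbn, Fancg and Palb2, all close to 0, changed sign. The same scaling took the CD4 groups of Trp53, Brca2, Ercc2, Ddb1 and Polh apart, KO above WT. It left those of Mre11a, Ercc4 and Ercc5, which were apart in TPM with KO below WT, overlapping. The share of all genes that it took apart was not counted, and the median of all genes rose with it. It called no member other than Fanci in CD4 cells. In CD8 cells that scaling turned the sign of Parp2 and Ercc4, likewise close to 0.

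In CD8 KO against CD8 WT no member was called by limma, where 0.297% of all genes were. At an unadjusted p under 0.05 there were 5 members higher (12.5%, all genes 7.08%) and 5 lower (12.5%, all genes 8.01%). In that comparison 24 of 40 members were below 0 (all genes 47.3%), with a median of -0.35, against 0.05 for all genes. The libraries did not overlap for 14 of 40 members that were lower in CD8 KO (35%, all genes 19.1%) and 8 that were higher (20%, all genes 23%). The CD8 results rest on the library labelled CD8 WT replicate 2. With it left out, 26 of 40 members were lower, with a median of -0.48 (all genes -0.07). With CD8 WT replicate 1 left out, 20 of 40 were lower and the median turned to 0.05 (all genes 0.20).

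Averaged over both cell types, Fanci was again the single call among the 40 members, where 4.12% of all genes were called and 2.76% were called lower. Of the 40, 27 had a difference below 0 (67.5%, all genes 54.5%). At an unadjusted p under 0.05 there were 10 members lower (25%, all genes 13.8%) and 5 higher (12.5%, all genes 8.82%). KO libraries lay below WT libraries of the same cell type without overlap in both cell types for 8 members (20%, all genes 11.1%), and above them for 2 members, Polk and Msh6 (5%, all genes 8.93%). When the library labelled CD8 WT replicate 2 was left out, 6 members were called (15%, all genes 11.2%), all lower: Fanci, Prkdc, Rad50, Xrcc4, Xrcc5 and Xrcc6. Without CD8 WT replicate 1 it was also 6 (all genes 15.3%), namely Fanci and Lig1 as lower and Ddb1, Lig4, Msh6 and Trp53 as higher. No member was called for a difference between the KO effects in CD8 and CD4 cells (limma), as no gene of the 11786 was (0%), and 2 members, Fanci and Fancg, had an unadjusted p under 0.05 (5%, all genes 6.95%).

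**Figure D2:**
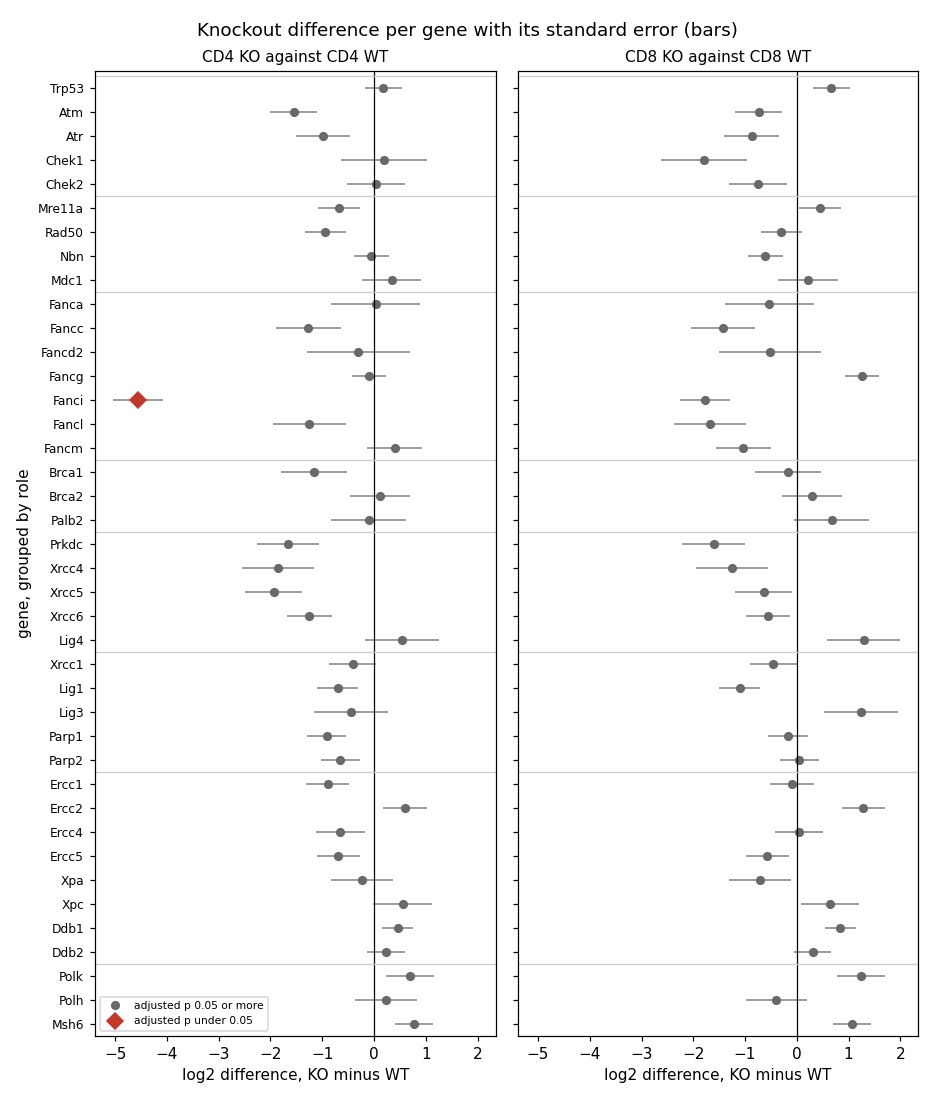
Log2 difference, KO minus WT, on the log2(TPM + 1) scale for the 40 tested members (points) with the standard error from limma (bars), in CD4 cells on the left and CD8 cells on the right, on the same axis. The red diamond marks the single call, Fanci in CD4 cells at -4.56, and the CD8 panel has none.

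The Fanconi anaemia pathway had 7 members, all tested. Fanci (chr7:79392338-79450264, plus strand, mm10) had 3.42 and 6.87 TPM in CD4 KO, against 133 and 143 TPM in CD4 WT. In CD8 cells it had 5.03 and 2.61 TPM in KO, against 17.1 and 13.1 TPM in WT. Both CD4 WT libraries were far above the other 6, and in each cell type the KO libraries lay below the WT libraries without overlap. The CD4 KO mean was 26.8-fold lower than the CD4 WT mean, and on the log2(TPM + 1) scale Fanci fell by 4.56 ± 0.48 (SE, n = 2 each, limma adjusted p = 0.0144), rank 4 from the lowest of 11786 genes. The CD8 KO mean was 3.95-fold lower, with a log2 difference of -1.77 ± 0.48 that was not called (limma adjusted p = 0.173). Averaged over cell types Fanci fell by 3.17 ± 0.34 (limma adjusted p = 0.00376). The difference between the effects was 2.78 ± 0.69 and was not called (adjusted p = 0.652 by limma).

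The CD4 call of Fanci was lost in most fits with 1 library left out. In the fits that lost it or the averaged call, few or none of all genes were called in that comparison. Leaving out any 1 of the 4 CD4 libraries or either CD8 KO library took the CD4 call away (limma adjusted p between 0.0943 and 0.308), with log2 differences of -4.97 to -4.14, while it held without either CD8 WT library. The CD4 call was also lost without the filter on low levels (adjusted p = 0.0753 by limma), where 0% of all genes were called in CD4 cells. The averaged call was lost without CD4 KO replicate 1 (limma adjusted p = 0.0565), CD4 WT replicate 1 (0.0658) or CD4 WT replicate 2 (0.0517). The B cell markers given above were also lower in CD4 KO than in CD4 WT, and their part in the Fanci result was not tested. In CD4 KO they stood at 2294 and 2189 TPM with Fanci at 3.42 and 6.87 TPM. In CD4 WT they stood at 3002 and 3423 TPM with Fanci at 133 and 143 TPM. In CD8 KO they stood at 551 and 587 TPM with Fanci at 5.03 and 2.61 TPM. In CD8 WT they stood at 488 and 1420 TPM with Fanci at 17.1 and 13.1 TPM. The S phase and proliferation list, 31 genes such as Mki67 and Pcna, summed to 890 and 997 TPM in CD4 KO, against 797 and 796 TPM in CD4 WT, with none called by limma (5 of 31 at an unadjusted p under 0.05, 16.1%, all genes 16.7%). Fanci shares 882 bases at its 3′ end with Polg, the mitochondrial DNA polymerase, on the other strand, and no label or header says whether reads were counted by strand. Polg, which was looked at after the values of Fanci were seen, had 21.1 and 21.5 TPM in CD4 KO, against 35.7 and 43.7 TPM in CD4 WT, a log2 difference of -0.86 ± 0.40 that was not called (limma adjusted p = 0.314).

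Fanci also separated the wild-type cell types. The CD8 WT mean was 9.15-fold lower than the CD4 WT mean, a log2 difference of -3.12 ± 0.48 (limma adjusted p = 0.0444), the single call among 40 members where 0.195% of all genes were called and 0.0848% were called lower. This comparison shares the CD4 WT libraries with the CD4 knockout comparison. The call was lost under 8 of 11 other settings and when any library other than CD8 WT replicate 1 was left out (limma adjusted p up to 0.59). B cell markers moved with it as well, 12 of 12 being lower in CD8 WT than in CD4 WT, and their part in the difference was not tested. Across the set 30 of 40 members were lower in CD8 WT than in CD4 WT (75%, all genes 67%), with a median of -0.36, against -0.26 for all genes. CD8 WT lay below CD4 WT without overlap for 15 members (37.5%, all genes 24.8%) and above it for 1, Nbn (2.5%, all genes 9.53%). The count was 22 of 40 lower and the median -0.08 (all genes -0.06) if the CD8 WT side rested on replicate 1 alone, with the library labelled replicate 2 omitted. With replicate 2 alone the median was -0.71 (all genes -0.44). With median-of-ratios scaling, which moved the median of all genes here to 0.02, 23 of 40 were lower.

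The other Fanconi genes did not share the CD4 WT level of Fanci. Fancd2, the partner of FANCI, had 3.47 and 0.194 TPM in CD4 KO, against 2.20 and 1.54 TPM in CD4 WT, and 0.145 to 5.33 TPM in the CD8 libraries. Its groups overlapped in both cell types. Fancl, the ubiquitin ligase that marks FANCI and FANCD2, had 15.6 and 18.1 TPM in CD4 KO, against 31.3 and 54.6 TPM in CD4 WT, and 21.1 and 3.32 TPM in CD8 KO, against 40.0 and 23.0 TPM in CD8 WT. Its KO libraries were the lower ones in both cell types, with log2 differences of -1.25 ± 0.70 in CD4 and -1.68 ± 0.70 in CD8 cells that were not called (limma adjusted p = 0.403 and 0.303). The CD8 value of Fancl was -0.51 without CD8 KO replicate 2 and -2.86 without CD8 KO replicate 1. Fancc, of the core complex that holds FANCL, had 5.57 and 1.83 TPM in CD4 KO, against 8.73 and 10.1 TPM in CD4 WT, and 1.42 and 3.09 TPM in CD8 KO, against 8.80 and 6.27 TPM in CD8 WT. KO lay below WT without overlap in each cell type, again with no call (limma adjusted p = 0.342 in CD4, 0.327 in CD8, 0.114 averaged).

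Fancg, another core complex gene, showed no such order. It had 43.4 and 52.0 TPM in CD4 KO, against 46.7 and 55.2 TPM in CD4 WT, and 80.3 and 63.0 TPM in CD8 KO, against 32.9 and 25.9 TPM in CD8 WT. The CD4 groups overlapped, while both CD8 KO libraries were above the other 6, a log2 difference of 1.26 ± 0.34 that was not called (limma adjusted p = 0.170). The remaining core gene, Fanca, and the translocase gene Fancm were low, at 0.255 to 5.30 TPM for Fanca and 3.63 to 13.8 TPM for Fancm over all libraries. Fanca overlapped between genotypes in each cell type, and Fancm was lower in CD8 KO without overlap and overlapped in CD4 cells.

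**Figure D3:**
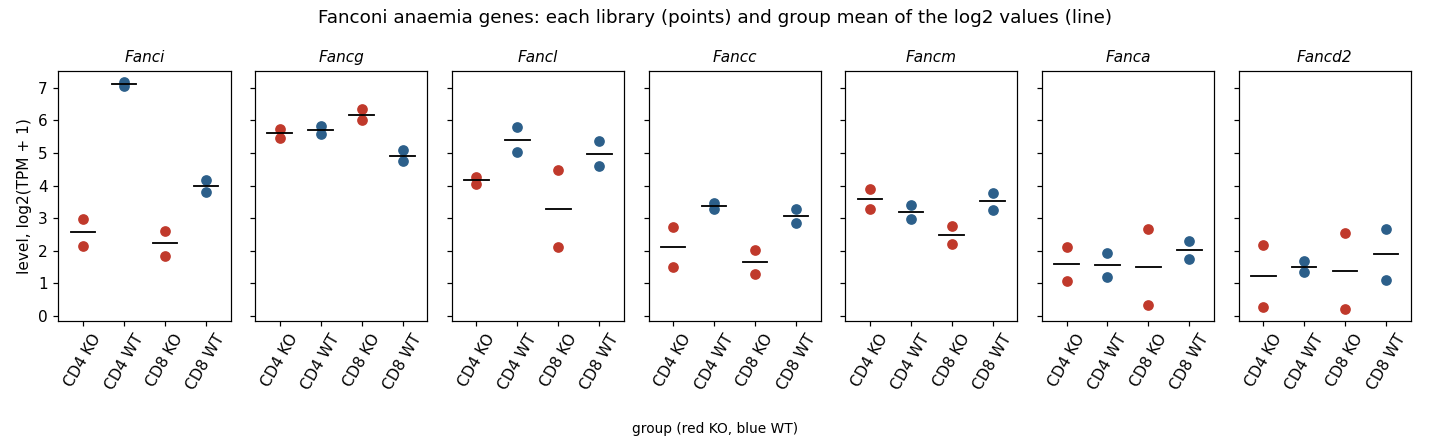
Level, log2(TPM + 1), of the 7 Fanconi anaemia genes in every library (points, red KO and blue WT), by group, with a line at the mean of the log2 values. Fanci in CD4 WT, at 133 and 143 TPM, stands above all other points, whereas Fancg has its highest points in CD8 KO at 80.3 and 63.0 TPM.

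Promoter sequences are shown for 3 genes: Fanci, the 1 called member, Xrcc5, the next lowest in CD4 cells, and Msh6, the highest in CD4 cells. Each runs 5′ to 3′ from 250 bases before the gene start to 50 after it, on the plus strand of GRCm38.p6 from RefSeq, where 35 of the 41 genes were matched by symbol. Capitals mark matches on either strand to GGAAGTG (an ETS factor motif), TTCCCGC (E2F), GGGCGG (GC box) and CCAAT, and where 2 matches overlap their capitals run together.
Fanci, chr7:79392088-79392387: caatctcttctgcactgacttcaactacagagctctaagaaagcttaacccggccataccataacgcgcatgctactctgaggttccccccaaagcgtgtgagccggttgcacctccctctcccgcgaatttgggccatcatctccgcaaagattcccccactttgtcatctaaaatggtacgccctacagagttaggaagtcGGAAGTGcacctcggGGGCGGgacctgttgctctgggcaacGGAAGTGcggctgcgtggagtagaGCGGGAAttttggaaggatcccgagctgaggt
Xrcc5, chr1:72307171-72307470: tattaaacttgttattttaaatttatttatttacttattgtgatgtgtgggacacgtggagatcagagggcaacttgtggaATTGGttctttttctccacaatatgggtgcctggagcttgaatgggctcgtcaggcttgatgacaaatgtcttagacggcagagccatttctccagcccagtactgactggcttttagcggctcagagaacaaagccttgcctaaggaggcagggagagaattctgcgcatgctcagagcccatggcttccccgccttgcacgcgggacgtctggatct
Msh6, chr17:87974800-87975099: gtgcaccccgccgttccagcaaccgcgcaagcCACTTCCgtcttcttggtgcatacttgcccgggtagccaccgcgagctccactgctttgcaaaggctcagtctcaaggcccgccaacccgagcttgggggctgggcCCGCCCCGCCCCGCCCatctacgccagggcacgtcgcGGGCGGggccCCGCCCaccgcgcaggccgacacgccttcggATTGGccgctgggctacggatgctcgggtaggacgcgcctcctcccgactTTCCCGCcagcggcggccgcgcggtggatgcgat
The Fanci window held 2 ETS matches, 1 E2F match and 1 GC box. The Xrcc5 window held 1 CCAAT and no other match, and the Msh6 window held 1 ETS match, 1 E2F match, 5 GC boxes and 1 CCAAT, with 2 bases shared between matches. For the shares below, a gene was counted if any of its promoter windows held the letters. The E2F letters were found for 13 of 35 members (37.1%). They were found for 9.89% of the 8355 tested genes matched by symbol and 5.29% of all 27025 symbols with a window. The ETS letters were found for 20.0% of members (tested genes 18.2%, all symbols 12.5%). The GC box was found for 62.9% (67.1% and 38.2%) and CCAAT for 51.4% (43.5% and 41.1%). These are matches of letters and were not tested for binding.

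Of the damage kinases and p53, none was called in any comparison. Trp53, the transcription factor p53, had 534 and 460 TPM in CD4 KO, against 416 and 460 TPM in CD4 WT, and 458 and 555 TPM in CD8 KO, against 452 and 222 TPM in CD8 WT. The value of 222 TPM belongs to the library labelled CD8 WT replicate 2, and the other 7 lay between 416 and 555 TPM. The log2 differences were 0.18 ± 0.35 in CD4 and 0.67 ± 0.35 in CD8 cells (limma adjusted p = 0.836 and 0.403), and without that library the CD8 value was 0.16. By contrast, genes that p53 switches on were called as higher while Trp53 itself was not: of 21 tested p53 targets, 3 were called in CD4 KO (Ccng1, Phlda3 and Trp53inp1), 2 in CD8 KO (Ccng1 and Phlda3) and 5 in the average (with Bax and Fas added), and none was called lower. Of all genes 0.187%, 0.11% and 1.36% were called higher in those comparisons. Their median log2 difference was 1.26 in CD4 and 0.57 in CD8 cells. These targets were named after their values were seen, and the list was chosen with earlier results of these data known.

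Atm, the kinase of the break response, had 5.62 and 8.77 TPM in CD4 KO, against 24.1 and 21.2 TPM in CD4 WT, and 10.8 and 7.63 TPM in CD8 KO, against 17.1 and 14.6 TPM in CD8 WT. All 4 KO libraries lay below all 4 WT libraries. The log2 differences were -1.55 ± 0.46 in CD4 and -0.74 ± 0.46 in CD8 cells, and neither was called (limma adjusted p = 0.142 and 0.467), nor was the average (0.0775 by limma). Atr, its relative for replication stress, had 6.59 and 6.92 TPM in CD4 KO, against 9.44 and 21.4 TPM in CD4 WT, and 7.88 and 5.61 TPM in CD8 KO, against 13.5 and 12.6 TPM in CD8 WT, again with every KO library below every WT library and no call (limma adjusted p = 0.177 averaged). Chek1, the kinase that ATR switches on, had 2.90 and 3.02 TPM in CD4 KO, against 4.83 and 1.07 TPM in CD4 WT, and 0.953 and 2.31 TPM in CD8 KO, against 3.29 and 17.1 TPM in CD8 WT. Its 17.1 TPM is again from the library labelled CD8 WT replicate 2, in which the S phase and proliferation list summed to 1655 TPM, against 796 to 1285 TPM elsewhere, and the part of dividing cells in this value was not tested. Chek2, the kinase below ATM, ranged from 5.68 to 15.9 TPM, and its CD8 KO libraries lay below its CD8 WT libraries without a call.

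No break sensing gene was called in a knockout comparison. Rad50, the coiled-coil subunit of the MRE11 complex, had 47.3 and 56.6 TPM in CD4 KO, against 113 and 89.1 TPM in CD4 WT, and 58.6 and 62.1 TPM in CD8 KO, against 111 and 50.2 TPM in CD8 WT. The CD4 groups did not overlap and the CD8 groups did, with log2 differences of -0.94 ± 0.40 and -0.30 ± 0.40 that were not called (limma adjusted p = 0.270 and 0.736). Mre11a, which encodes the nuclease of the complex, had 30.1 and 18.9 TPM in CD4 KO, against 35.1 and 43.3 TPM in CD4 WT, and 35.2 and 26.1 TPM in CD8 KO, against 25.7 and 18.7 TPM in CD8 WT, so that KO lay below WT in CD4 cells and above it in CD8 cells, and with median-of-ratios scaling the CD4 groups overlapped. The CD8 difference of Mre11a was 0.23 with the library labelled CD8 WT replicate 2 left out, against 0.45 with it. Nbn, the subunit that recruits ATM, ranged from 25.01 to 43.4 TPM and was lower in CD8 KO without overlap. Mdc1, the scaffold on marked chromatin, ranged from 4.78 to 23.8 TPM and overlapped in both cell types.

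The recombination genes had low levels. Brca1 had 1.04 and 2.56 TPM in CD4 KO, against 6.85 and 3.65 TPM in CD4 WT, and overlapped in CD8 cells, at 3.29 and 3.32 TPM in KO, against 2.68 and 5.36 TPM in WT. Brca2, a recombination gene, ranged from 2.24 to 4.63 TPM and Palb2, which links BRCA1 to BRCA2, from 1.08 to 11.7 TPM, both overlapping between genotypes in each cell type. None of the 3 tested genes had an unadjusted p under 0.05 in a knockout comparison.

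Among the 5 end joining genes, 4 had KO libraries wholly below WT libraries in CD4 cells (all genes 36.5%), all 4 at an unadjusted p under 0.05 (all genes 11.7% lower), and none was called. Xrcc5, which encodes the larger Ku subunit, Ku80, had 21.0 and 14.5 TPM in CD4 KO, against 83.0 and 58.7 TPM in CD4 WT, and 25.7 and 28.2 TPM in CD8 KO, against 80.1 and 22.3 TPM in CD8 WT. Its log2 difference was -1.94 ± 0.55 in CD4 cells (limma adjusted p = 0.132) and -0.64 ± 0.55 in CD8 cells (adjusted p = 0.597, limma). The library labelled CD8 WT replicate 2, at 22.3 TPM, lay under both CD8 KO libraries, and without it the averaged difference was -1.74 and was called (limma adjusted p = 0.0102), whereas with it the averaged value was -1.29 and was not (0.0911 by limma). Xrcc6, for the smaller subunit Ku70, had 22.5 and 38.7 TPM in CD4 KO, against 65.3 and 78.9 TPM in CD4 WT, and 42.8 and 39.7 TPM in CD8 KO, against 88.4 and 42.2 TPM in CD8 WT. Both Ku genes had KO below WT in CD4 cells and overlapping groups in CD8 cells, where median-of-ratios scaling took Xrcc6 apart and left Xrcc5 overlapping.

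Prkdc, which encodes DNA-PKcs, had 3.15 and 4.24 TPM in CD4 KO, against 9.83 and 19.2 TPM in CD4 WT, and 3.70 and 1.92 TPM in CD8 KO, against 14.9 and 7.004 TPM in CD8 WT. All 4 KO libraries were below all 4 WT libraries, with log2 differences of -1.66 ± 0.61 and -1.61 ± 0.61 in CD4 and CD8 cells that were not called (limma adjusted p = 0.210 and 0.269, averaged 0.0641). Xrcc4, the scaffold for the ligase, had 9.13 and 2.76 TPM in CD4 KO, against 22.3 and 20.5 TPM in CD4 WT, and 12.5 and 7.85 TPM in CD8 KO, against 49.3 and 12.4 TPM in CD8 WT. The CD4 groups were apart and the CD8 groups overlapped (apart with median-of-ratios scaling), with log2 differences of -1.86 ± 0.70 and -1.25 ± 0.70 (adjusted p = 0.223 and 0.427 by limma). Lig4, the ligase that XRCC4 carries, differed with the opposite sign: it had 15.3 and 15.3 TPM in CD4 KO, against 11.1 and 9.36 TPM in CD4 WT, and 7.89 and 13.5 TPM in CD8 KO, against 9.15 and 1.12 TPM in CD8 WT. Its log2 difference in CD8 cells, 1.29 ± 0.71, was 0.16 with the library labelled CD8 WT replicate 2 left out.

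The genes for single-strand breaks and base repair were all below 0 in CD4 KO, 5 of 5 (all genes 58%), with a median log2 difference of -0.65 and no call. Parp1, the nick sensor, had 92.7 and 91.5 TPM in CD4 KO, against 162 and 188 TPM in CD4 WT, and 93.3 and 49.97 TPM in CD8 KO, against 98.6 and 59.98 TPM in CD8 WT. The CD4 groups stood apart, by -0.92 ± 0.38 (limma adjusted p = 0.264), and the CD8 groups overlapped. Lig1, the ligase of replication and long-patch repair, had 17.5 and 19.5 TPM in CD4 KO, against 34.4 and 27.3 TPM in CD4 WT, and 18.8 and 19.4 TPM in CD8 KO, against 33.0 and 54.1 TPM in CD8 WT. Every KO library was below every WT library and no call was made (adjusted p = 0.0975 averaged, limma). The 54.1 TPM of Lig1 is from the library labelled CD8 WT replicate 2, with its S phase and proliferation sum of 1655 TPM. Without that library the CD8 difference was -0.76, against -1.11 with it, and the part of dividing cells was not tested. Parp2, the relative of Parp1, ranged from 47.4 to 96.4 TPM and was lower in CD4 KO without overlap. The scaffold gene Xrcc1 ranged from 30.6 to 81.8 TPM and was lower without overlap in CD8 KO, and its ligase partner gene Lig3, at 0.893 to 15.4 TPM, in CD4 KO.

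Of the 8 nucleotide excision genes, 4 were above 0 and 4 below in CD4 KO. The lesion sensors and the helicase had positive differences in both cell types, although Ddb2 in CD8 cells turned to -0.21 when the library labelled CD8 WT replicate 2 was left out. Ddb1, the adaptor of the UV damage sensor, had 315 and 434 TPM in CD4 KO, against 229 and 316 TPM in CD4 WT, and 353 and 357 TPM in CD8 KO, against 224 and 175 TPM in CD8 WT. Ddb2, the subunit that binds the lesion and a known p53 target, had 246 and 278 TPM in CD4 KO, against 210 and 238 TPM in CD4 WT, and 145 and 184 TPM in CD8 KO, against 189 and 91.9 TPM in CD8 WT. For Ddb1 the groups stood apart in CD8 cells and for Ddb2 in CD4 cells, with no call (limma adjusted p = 0.248 and 0.792). Xpc, which recognises distorted DNA, had 52.7 and 60.8 TPM in CD4 KO, against 19.5 and 74.2 TPM in CD4 WT, and 49.9 and 56.1 TPM in CD8 KO, against 45.1 and 24.99 TPM in CD8 WT. The CD4 WT libraries of Xpc lay on either side of the CD4 KO libraries, and its CD4 difference of 0.55 ± 0.56 turned to -0.38 without CD4 WT replicate 1. Ercc2, the XPD helicase of TFIIH, had 40.0 and 28.6 TPM in CD4 KO, against 16.9 and 28.6 TPM in CD4 WT, and 30.9 and 37.7 TPM in CD8 KO, against 15.3 and 11.8 TPM in CD8 WT. Both CD8 KO libraries were above both CD8 WT libraries, by 1.29 ± 0.42 (limma adjusted p = 0.222). The nuclease genes Ercc1, Ercc4 and Ercc5 were the lower ones in CD4 KO, at log2 differences of -0.90, -0.65 and -0.69, each without overlap in TPM, although Ercc4 and Ercc5 overlapped with median-of-ratios scaling. Of the 3, Ercc5 was also lower without overlap in CD8 KO. Xpa, the damage verifier, ranged from 3.24 to 9.82 TPM and was lower without overlap in CD8 KO.

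Translesion synthesis and mismatch repair had 2 of 3 members with KO above WT without overlap in both cell types (all genes 8.93%). Msh6, a mismatch repair gene, had 88.2 and 55.7 TPM in CD4 KO, against 45.2 and 36.8 TPM in CD4 WT, and 55.5 and 41.5 TPM in CD8 KO, against 24.4 and 20.4 TPM in CD8 WT. The log2 differences were 0.77 ± 0.37 and 1.07 ± 0.37 in CD4 and CD8 cells, with no call (limma adjusted p = 0.333 and 0.243, averaged 0.0796). Polk, a polymerase that copies past bulky adducts, had 31.5 and 32.6 TPM in CD4 KO, against 17.2 and 22.1 TPM in CD4 WT, and 40.8 and 17.8 TPM in CD8 KO, against 10.04 and 11.7 TPM in CD8 WT. KO lay above WT without overlap in each cell type for both genes, and Polk was not called either (limma adjusted p = 0.122 averaged). Polh, the polymerase for UV lesions, ranged from 3.33 to 9.11 TPM and overlapped in each cell type.

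Longer genes had lower differences. Genomic span, the distance from the start to the end of the gene as listed, ran from 6.3 kb for Lig4 to 241 kb for Xrcc4 among the members, with a median of 34.1 kb, against 19.1 kb for all tested genes. Across the 40 members Spearman's rho between span and the log2 difference was -0.57 in CD4 and -0.61 in CD8 cells, and across all 11786 genes it was -0.42 and -0.31. These are correlations across genes measured in the same libraries, which are not independent replicates, and the CD4 and CD8 values share no library. The 3 members of 100 kb and more, Fancc, Prkdc and Xrcc4, had a median of -1.66 in CD4 and -1.42 in CD8 cells, while all genes of that span had medians of -1.11 and -0.83. The 2 members under 10 kb, Fancg and Lig4, had a median of 0.22 in CD4 and 1.27 in CD8 cells, while all genes of that span had 0.17 and 0.30.

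With the trend of each library against span removed, Fanci kept its call, at -4.04 in CD4 cells (limma adjusted p = 0.0293). Of all genes 17 were then called in CD4 cells (0.144%), 4 of them lower. Of 40 members 22 were lower in CD4 and 23 in CD8 cells, with medians of -0.21 and -0.155 (all genes -0.03 and 0.11). Under the same setting Prkdc stood at -0.46 in CD4 and -0.71 in CD8 cells, Xrcc4 at -0.58 and -0.30, and Fancc at -0.30 and -0.73. Of other long members, Atm (99.6 kb) stood at -0.73 and -0.17, and Atr (94 kb) at -0.19 and -0.34. Xrcc5 (87.5 kb) stood at -1.19 and -0.15, Fancl (84.8 kb) at -0.52 and -1.205, and Rad50 (57.8 kb) at -0.42 and 0.008. Of members with positive differences, Msh6 stood at 0.74 in CD4 and 1.001 in CD8 cells and Ercc2 at 0.55 and 1.195, while Polk was higher than before at 1.24 and 1.58. Fanci, at 57.9 kb, lay in a span class of 50 to 100 kb whose 1500 genes had a median of -0.64 in CD4 cells.

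**Figure D4:**
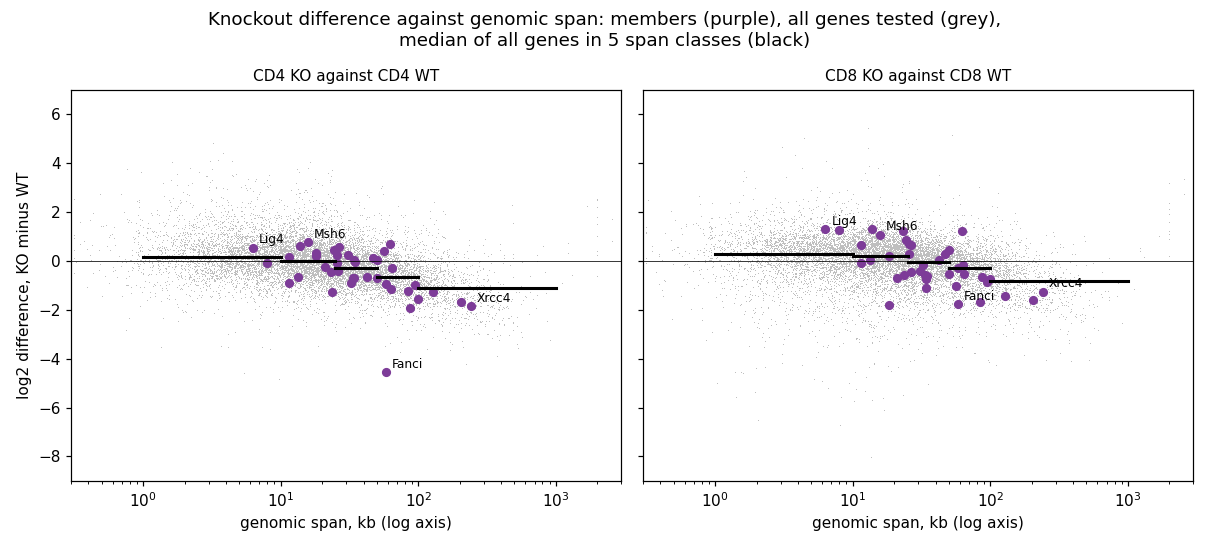
Log2 difference, KO minus WT, against genomic span in kb (log axis) for the tested members (purple) and all tested genes (grey), with black lines for the median of all genes in 5 span classes; genes whose span lies outside the axis are not drawn, in CD4 cells on the left and CD8 cells on the right. The black medians step down from 0.17 under 10 kb to -1.11 at 100 kb and more in CD4 cells, and Fanci at -4.56 lies far below its class.

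A wider list of 89 other repair genes, 85 of them tested, gave a median log2 difference of -0.37 in CD4, -0.03 in CD8 and -0.15 in the average, with 2, 0 and 4 genes called, all lower (0.526% of all genes called lower in CD4 and 2.76% in the average). In CD8 cells 11 of them had an unadjusted p under 0.05 by limma (12.9%, all genes 15.1%). Wrn, the Werner syndrome helicase, had 11.7 and 11.9 TPM in CD4 KO, against 58.7 and 60.6 TPM in CD4 WT, and 35.3 and 22.5 TPM in CD8 KO, against 44.2 and 43.4 TPM in CD8 WT. It fell by 2.25 ± 0.37 in CD4 cells (limma adjusted p = 0.0393) and by 1.43 ± 0.26 in the average (0.0218 by limma). Pms1, a mismatch repair gene of the MutL family, had 3.78 and 2.92 TPM in CD4 KO, against 32.8 and 23.0 TPM in CD4 WT, and 14.7 and 14.2 TPM in CD8 KO, against 13.6 and 14.2 TPM in CD8 WT. It fell by 2.72 ± 0.45 in CD4 cells (limma adjusted p = 0.0399), and its CD8 groups overlapped.

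The 2 further genes called in the average were Blm and Nhej1. Blm, the Bloom syndrome helicase that dissolves recombination intermediates, had 6.83 and 10.3 TPM in CD4 KO, against 24.2 and 24.9 TPM in CD4 WT, and 13.4 and 8.32 TPM in CD8 KO, against 33.6 and 45.1 TPM in CD8 WT, falling by 1.61 ± 0.31 on average (limma adjusted p = 0.0270). Nhej1, the partner of XRCC4 at broken ends, had 6.23 and 16.7 TPM in CD4 KO, against 63.8 and 43.7 TPM in CD4 WT, and 11.9 and 15.1 TPM in CD8 KO, against 78.7 and 26.3 TPM in CD8 WT, falling by 1.97 ± 0.42 (adjusted p = 0.0359, limma). Both lay below WT without overlap in each cell type. Their spans of 80.1 kb for Blm, 79.3 kb for Nhej1, 108 kb for Pms1 and 151 kb for Wrn are all above the median of tested genes. Among genes at the ends of this list without a call, Fance differed by -2.72 and Parg by -2.29 in CD8 cells, Rad54b by 1.45 and Brip1 by 1.28 in CD8 cells, and Neil3 by 1.91 and Clspn by 0.87 in CD4 cells, with Neil3 listed at 0 in both CD4 WT libraries.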

How the data were processed

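Naive CD4 and CD8 T cells of cKO and WT mice gave 8 messenger RNA libraries, in groups of 2 by labelled lineage and genotype. HISAT and the build mm10 are named in the submitters' processing notes, and a version, the program behind the gene tables and strand handling were not given in the sources used here. Per the file headers, the authors' tables give TPM per gene, which sums to the same total in each library. The deposited tables also hold FPKM per gene, used here as an alternative, and coverage per gene, from which with FPKM the aligned bases were estimated. They hold no read counts, so no counting interval can be given, and a listed 0 may be a failed estimate.

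TPM was summed per symbol. Genes averaging at least 1 TPM over the 8 libraries (11786) were fitted as log2(TPM + 1) with limma 3.58.1 (R 4.3.3, data.table package version 1.17.8), with an intensity trend and 1 mean per group over all 8 libraries (4 residual and 5.68 prior degrees of freedom), with Benjamini-Hochberg adjustment over all tested genes and calls at 0.05. The log2(TPM + 1) scale understates changes of weakly expressed genes. Figures were drawn with matplotlib 3.10.9. The members and lists were chosen with earlier results of these data known. Full values are given for Trp53, for called members and for the 4 highest and 4 lowest members of each knockout comparison, and for other repair genes for those called and the 2 highest and 2 lowest; further members are given in full to complete a role. Older symbols were matched through the RefSeq table of GRCm38.p6. The alternatives were other pseudocounts, filters, scalings, FPKM, no intensity trend, library weights, single comparisons, removal of the span trend, a replicate block and leaving out each library.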

Additional observations from a re-analysis of the deposited data

Results flagged for a closer look

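Mre11a was singled out because its libraries moved in opposite directions in the 2 cell types. CD4 KO, at 30.1 and 18.9 TPM, lay below CD4 WT, at 35.1 and 43.3 TPM, while CD8 KO, at 35.2 and 26.1 TPM, lay above CD8 WT, at 25.7 and 18.7 TPM. The difference between the KO effects, CD8 minus CD4, was 1.13 ± 0.57 on the log2(TPM + 1) scale and was not called (limma adjusted p = 0.701). With median-of-ratios scaling the CD4 groups overlapped, at 31.2 and 18.4 in KO against 30.9 and 36.6 in WT.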

How the results depend on the processing

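The count of members called in CD4 KO against CD4 WT, 1 with the settings reported, was 0 without the filter on low levels and 5 with library weights (12.5%, all genes 10.7%: Atm, Fanci, Rad50, Xrcc5 and Xrcc6, all lower). Averaged over cell types it was 3 with median-of-ratios scaling (7.5%, all genes 6.41%: Ddb1, Fanci and Prkdc). For CD8 WT against CD4 WT it was 0 with a pseudocount of 0.1 or 0.5, without the filter, with median-of-ratios scaling, without the intensity trend, with library weights, with only the groups compared and with the replicate block. Leaving out 1 library at a time gave 0 to 2 called members in CD4, 0 to 6 in CD8, 0 to 6 averaged, 0 to 3 for the difference of effects and 0 to 8 for CD8 WT against CD4 WT. The 6, 3 and 8 came without CD8 WT replicate 1, so that the library labelled CD8 WT replicate 2 stood alone for its group and was assumed to vary like the others; 15.6%, 15.3%, 9.74% and 13.8% of all genes were then called in CD8, averaged, for the difference of effects and for CD8 WT against CD4 WT. The averaged 6 came also without replicate 2, where 11.2% of all genes were called. In CD4 the 2 came when 1 of the CD8 WT libraries was left out, where the share called was larger for all genes than for members. The 0 came in fits where few or none of all genes were called in CD4, so this range followed the background. Xpc in CD4 cells ranged from -0.38 without CD4 WT replicate 1, a change of sign, to 1.49 without CD4 WT replicate 2. The cause of this range of Xpc was not tested. A fit of only the groups compared gives no value for the average or the difference of effects, which need all 4 groups, and Chek1 is not tested with a filter of 5 TPM. Of the alternative values of the named members, 430 kept their side of the threshold and direction, 25 lost the call, 10 gained one and 1 changed sign. Only the calls of Fanci could be lost, and all 25 losses were of those calls. Most of the 430 were values not called with the settings reported that stayed so, and they say little about how firm a call is.

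The titles number the replicates and do not say whether the numbers pair the samples. Deviations of same-numbered libraries correlated at -0.0359 to 0.0942 between groups, which cannot tell unpaired samples from a pairing of little effect. With the replicate block the members called were 1 in CD4, 0 in CD8, 1 averaged, 0 for the difference of effects and 0 for CD8 WT against CD4 WT, and all genes called were 29, 26 and 399 in the 3 knockout comparisons, against 84, 35 and 485 without it. All genes called in CD4 ranged from 0 without the filter to 1260 with library weights, and in CD8 were 0 under both of these. Depth is known only as aligned bases, so the weakest members, such as Bard1 and Fancd2, have no counting error of their own.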
